A study of Mus musculus with 18 samples.

Results

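The 10 receptor genes described here are those of the BMP and activin pathways: *Bmpr1a*, *Bmpr1b*, *Bmpr2*, *Acvr1*, *Acvr1b*, *Acvrl1*, *Acvr2a*, *Acvr2b*, *Eng* and *Tgfbr2*. They were taken by gene symbol from the 52636 genes of the count table, with earlier results of these data known. RNA-seq was performed on the retinal pigment epithelium (RPE), the pigmented layer behind the retina, of C57BL/6 mice on postnatal day 14. There were 18 libraries in 6 groups of 3, each library made from both eyes of 1 mouse. One group was uninjected, and the other groups had received an AAV8 vector (an adeno-associated virus) under the retina of both eyes as newborns. All vectors carried the *Best1* promoter, which is active in the RPE, and expressed GFP, nSREBP2, ctrl sh, *Lrp2* sh1 or *Lrp2* sh2. SREBP2 is a transcription factor that controls cholesterol synthesis, nSREBP2 is the form of it that is active in the nucleus, and the GFP vector is its control. The *Lrp2* hairpins target the lipoprotein receptor LRP2, and ctrl sh, called Laczsh in the labels, is their control. The labels name the tissue only as retinal. The RPE was freed from the eyecup with papain after the retina and the optic nerve had been taken off, so that RNA of choroid and sclera can be in the libraries, and the vectors drive expression in only some of the cells sampled.

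Ligands of the BMP, activin and TGF-beta families signal through a complex of type I and type II receptors, both of which are kinases of the cell membrane. The ligand brings the receptors together, the type II receptor activates the type I receptor, and the type I receptor phosphorylates Smad proteins that enter the nucleus. BMPR1A, BMPR1B, ACVR1 and ACVRL1 are type I receptors that act on the Smads of the BMP branch, and ACVR1B is a type I receptor of activin. BMPR2, ACVR2A and ACVR2B are type II receptors of BMPs and activins, and TGFBR2 is the type II receptor of TGF-beta. ENG (endoglin) has no kinase and is a coreceptor. ENG and ACVRL1 are best known from the endothelium of blood vessels. In the eye, BMPs are made by the RPE and act in ocular growth.

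Between 8921885 and 13696934 reads were counted per library. The labels held for both targeted genes: *Srebf2* was at 208 to 233 CPM (counts scaled to a common library size, with TMM factors) in the nSREBP2 libraries and at 83.5 to 113 in the GFP libraries, and *Lrp2* was at 29.7 to 43.6 CPM in the 6 libraries of its hairpins and at 87.7 to 166 in those of ctrl sh. All 12 RPE marker genes had counts, and they summed to between 2591 and 11285 CPM. Their sum was 4695 to 11285 CPM in the uninjected libraries and 3303 to 3539 CPM in the GFP libraries. *Mitf*, *Otx2* and *Tyrp1* of this list are also made by melanocytes, so the sum is not of RPE alone. Markers of other cells of the eyecup were abundant: 10 fibroblast genes summed to between 18833 and 86155 CPM and 15 endothelial genes to between 2322 and 4159 CPM. The 8 melanocyte genes summed to between 4938 and 8886 CPM. By the Y-linked genes and *Xist*, the nSREBP2 mice were 3 males, the GFP, ctrl sh and *Lrp2* sh1 mice were all females, the *Lrp2* sh2 mice 2 males and 1 female, and the uninjected mice 1 male and 2 females. Group and sex therefore cannot be told apart among the 6 libraries of nSREBP2 and GFP. Only the uninjected and *Lrp2* sh2 groups hold both sexes, so a term for sex in a fit of all 18 libraries is estimated from these. For nSREBP2 versus GFP, values with that term carry over the sex difference of other groups and do not separate sex from vector.

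Levels of the receptors were compared with each other per kb of exon. *Eng* had the highest level, with a median of 91.1 CPM per kb over the 18 libraries, followed by *Tgfbr2* at 49.99, *Bmpr2* at 37.4, *Bmpr1a* at 31.3 and *Acvrl1* at 30.5 CPM per kb. A lower tier was formed by *Acvr1* at 14.0, *Acvr2a* at 9.53 and *Acvr1b* at 9.21 CPM per kb, and the lowest receptors were *Acvr2b* at 3.26 and *Bmpr1b* at 1.88 CPM per kb. In all 18 libraries *Eng* exceeded *Tgfbr2*, *Acvrl1* exceeded *Acvr1*, *Acvr1* exceeded *Acvr2a* and *Acvr1b* exceeded *Acvr2b*, and at these steps the ranges did not overlap. The other neighbours in the order had overlapping ranges: *Tgfbr2* was above *Bmpr2* in 17 libraries, *Bmpr2* above *Bmpr1a* in 15, *Bmpr1a* above *Acvrl1* in 10, *Acvr2a* above *Acvr1b* in 9, and *Acvr2b* above *Bmpr1b* in 17. Among the type I receptors of BMPs, the RPE preparations thus held far more RNA of *Bmpr1a* than of *Bmpr1b*. *Bmpr1b* rested on 71 to 191 counts per library and *Bmpr2*, a long gene, on up to 10043.

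**Figure D1:**
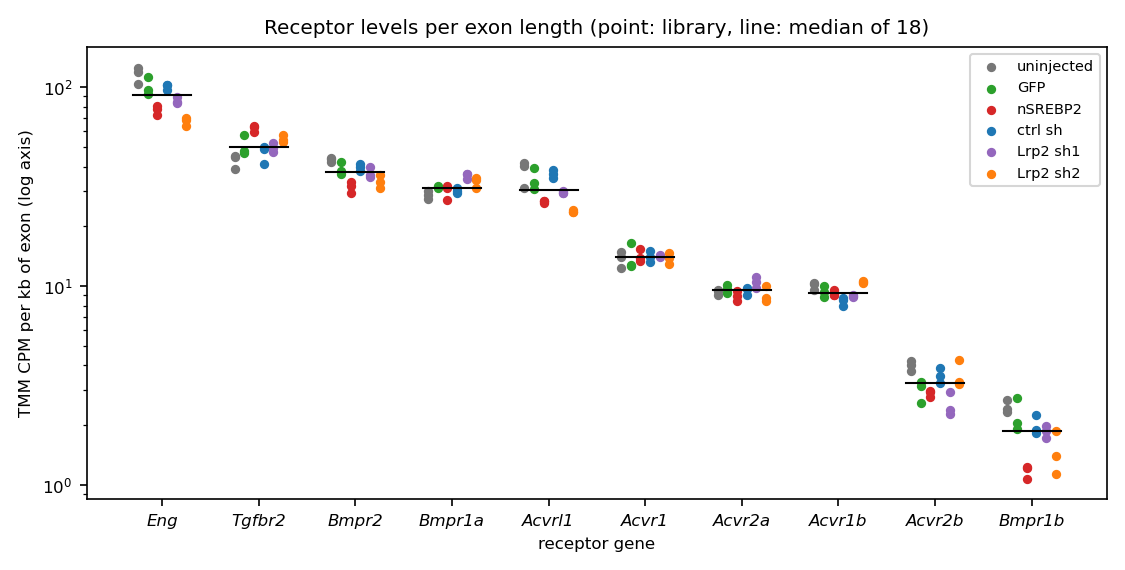
Levels of the 10 receptor genes in TMM-normalized CPM per kb of exon (log axis), ordered by their medians, with 1 point for each of the 18 libraries colored by group and a line at the median. *Eng* lies above all others at a median of 91.1 CPM per kb, and *Bmpr1b* is lowest at 1.88 CPM per kb.

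The receptors differed in how much they varied over the 18 libraries. *Bmpr1b* had the widest range, its highest library being 2.53 times its lowest, followed by *Eng* at 1.96, *Acvr2b* at 1.88, *Acvrl1* at 1.77 and *Tgfbr2* at 1.64 times. The range was 1.34 times for *Acvr1* and 1.32 times for *Acvr2a*. A test over the 6 groups called 8 of the 10 receptors, all but *Acvr1* (adjusted *P* = 0.988) and *Acvr2a* (adjusted *P* = 0.116). Here a gene is called when its edgeR *P*-value, adjusted over all genes tested, is below 0.05, and 48.7% of all genes were called in the same test.

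**Figure D2:**
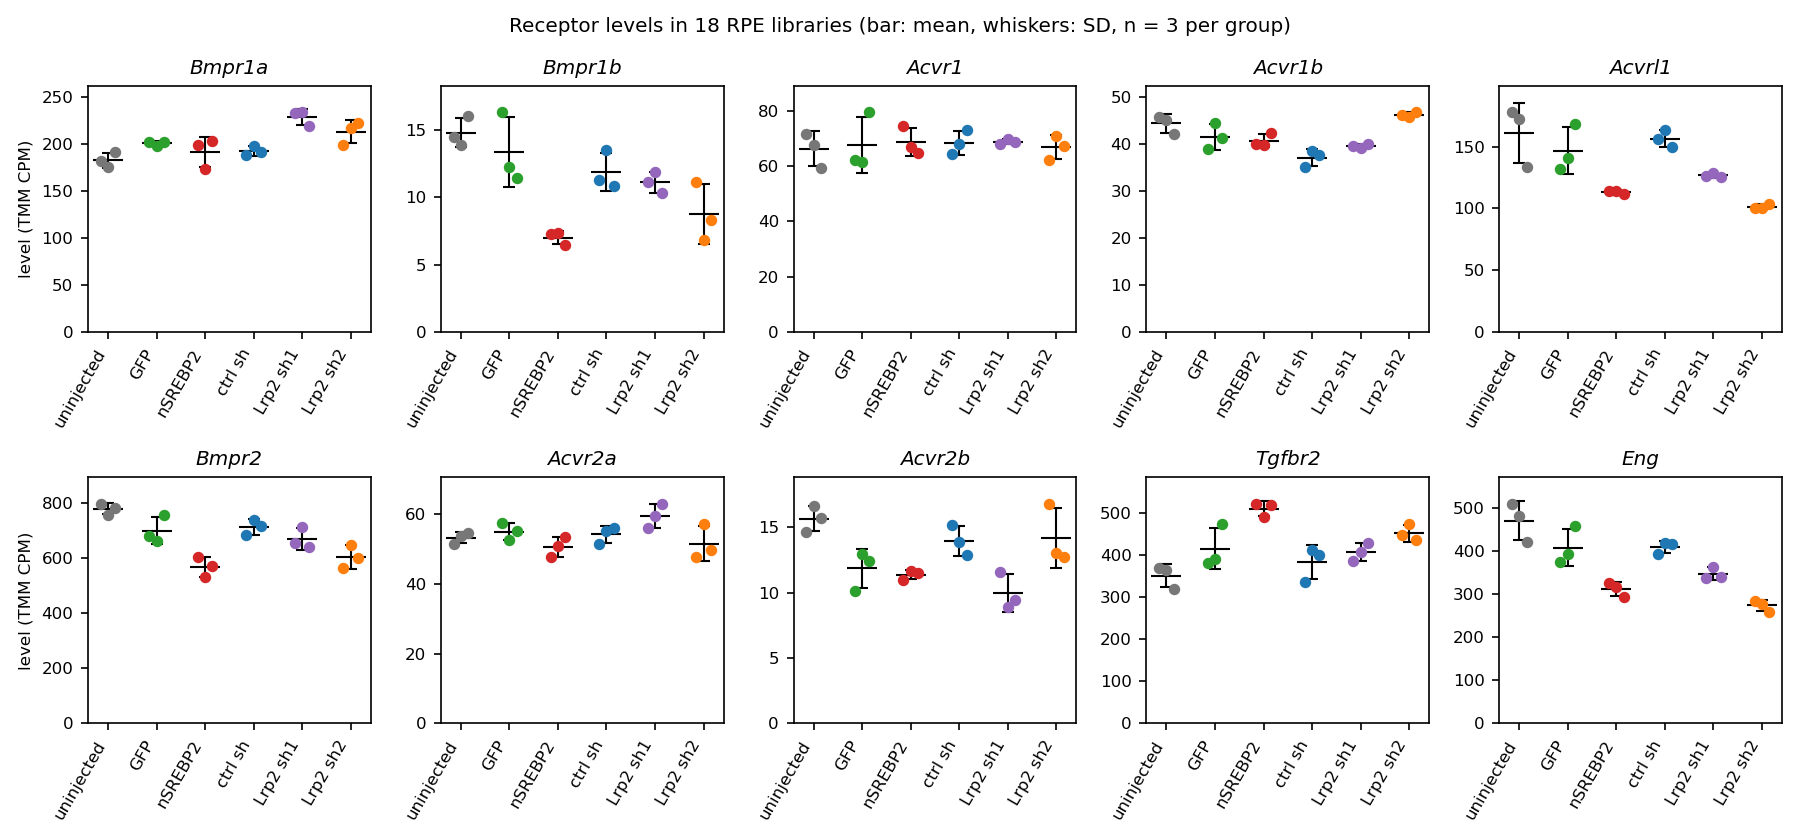
Level of each receptor (TMM-normalized CPM, axes from 0) in the 18 libraries by group, with the mean and SD (n = 3). *Bmpr1b* was lowest in the nSREBP2 libraries at 6.45 to 7.36 CPM, *Eng* and *Acvrl1* were lowest in the *Lrp2* sh2 libraries, and *Tgfbr2* was highest in the nSREBP2 libraries at 489.8 to 521 CPM.

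In nSREBP2 versus GFP, 5 of the 10 receptors were called, against 21% of all genes: *Tgfbr2* was higher, and *Bmpr1b*, *Eng*, *Acvrl1* and *Bmpr2* were lower (12.6% of all genes were called higher and 8.47% lower). With *Lrp2* sh1 versus ctrl sh, *Bmpr1a* was higher and *Acvrl1* lower, 2 of 10 receptors against 5.33% of all genes (3.06% higher and 2.28% lower). *Lrp2* sh2 versus ctrl sh gave 3 of 10, with *Acvr1b* higher and *Eng* and *Acvrl1* lower, against 18.1% of all genes (8.59% higher and 9.48% lower). *Acvrl1* was the only receptor that edgeR called in all 3 comparisons, and DESeq2 also called *Eng* in all 3 (adjusted *P* = 0.000614, 0.0172 and 1.24e-12). In these fits no receptor changed by more than 1 on the log2 scale, whereas 6.67%, 0.994% and 4.76% of all genes were called with such a change in the 3 comparisons. The median log2FC of the 10 receptors was −0.09, −0.04 and −0.04, beside −0.02, −0.01 and 0.01 for all genes tested. Both hairpins were compared with the same ctrl sh libraries.

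**Figure D3:**
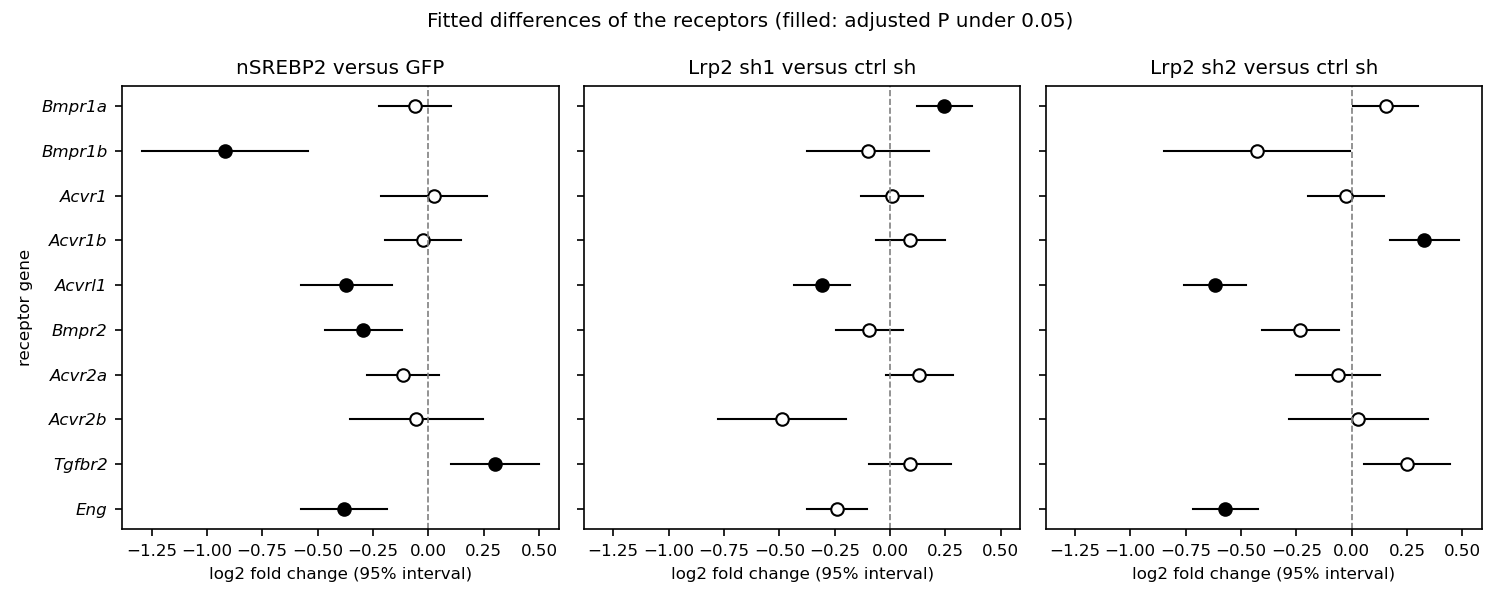
Fitted log2 fold change of each receptor with its 95% interval for nSREBP2 against GFP and for both hairpins against ctrl sh, with filled points for adjusted *P* under 0.05. *Bmpr1b* fell most with nSREBP2 (−0.92), and *Acvrl1* lay below 0 in all 3 comparisons.

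*Bmpr1b*, a type I receptor of BMPs, showed the largest difference of any receptor. It lies on chromosome 3, minus strand, at 141837136 to 142169425 (GRCm38). Its level was 16.3, 12.3 and 11.4 CPM in the GFP libraries and 7.25, 7.36 and 6.45 CPM in the nSREBP2 libraries. The groups did not overlap, and all nSREBP2 libraries lay below every control library of the series. The fall was 0.92 on the log2 scale (SE 0.17, 95% interval −1.29 to −0.55, adjusted *P* = 0.00387), and *Bmpr1b* stayed called whichever library was left out. With a term for sex in a fit of all 18 libraries, the difference was −0.74 and the adjusted *P* was 0.0568. Against the uninjected libraries as the control it was −1.08 (adjusted *P* = 0.000697). The uninjected libraries had 14.5, 13.9 and 16.04 CPM and the ctrl sh libraries 11.3, 13.5 and 10.9 CPM, and those of *Lrp2* sh1 had 11.1, 11.9 and 10.4 CPM. The *Lrp2* sh2 libraries had 11.2, 6.81 and 8.33 CPM. The female library of that group was its highest, within the range of ctrl sh, while both male libraries were below that range. The difference of *Lrp2* sh1 from ctrl sh was −0.10 (95% interval −0.37 to 0.18), and that of *Lrp2* sh2 was −0.43 (adjusted *P* = 0.147). Without the female *Lrp2* sh2 library the latter was −0.65 with an adjusted *P* of 0.0360. Over the 18 libraries the level of *Bmpr1b* went with the summed endothelial markers (Pearson *r* = 0.74, Spearman rho = 0.72, and *r* = 0.83 without the 2 farthest libraries), which share their groups, and the part of endothelial RNA in its fall was not tested.

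*Eng*, the coreceptor, lies on chromosome 2, plus strand, at 32646595 to 32682669, and *Acvrl1*, the type I receptor with which it acts in vessels, on chromosome 15, plus strand, at 101128522 to 101145336. In the GFP libraries *Eng* was at 374, 392 and 457 CPM and in the nSREBP2 libraries at 325, 316 and 293 CPM. It was at 393, 418 and 416 CPM in ctrl sh, 337, 364 and 339.8 CPM in *Lrp2* sh1, and 284, 278 and 259 CPM in *Lrp2* sh2. In each comparison all libraries of the treated group were below all those of their control. *Eng* fell by 0.38 on the log2 scale with nSREBP2 (SE 0.09, adjusted *P* = 0.0119) and by 0.57 with *Lrp2* sh2 (SE 0.07, adjusted *P* = 0.000547). For *Lrp2* sh1 the difference was −0.24 and missed the threshold at an adjusted *P* of 0.0503, and without ctrl sh replicate 1 it was −0.27 and called (adjusted *P* = 0.0241). The called falls of *Eng* held in each of the 6 fits that left out 1 library. The uninjected libraries had the highest levels in the median, at 509, 481 and 419.6 CPM.

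*Acvrl1* followed a like order. Its level was 132, 141 and 168 CPM in the GFP libraries and 114, 114 and 111 CPM in the nSREBP2 libraries, a fall of 0.37 on the log2 scale (SE 0.09, adjusted *P* = 0.0183). This call was lost without nSREBP2 replicate 1 (adjusted *P* = 0.0593) or 2 (adjusted *P* = 0.0541). In ctrl sh the values were 156, 164 and 149.7 CPM, in *Lrp2* sh1 126, 128 and 125 CPM, and in *Lrp2* sh2 101, 100.3 and 103 CPM. The 3 groups were separate from each other, with little spread within either hairpin group. *Acvrl1* fell by 0.31 with *Lrp2* sh1 (SE 0.06, adjusted *P* = 0.0144) and by 0.62 with *Lrp2* sh2 (SE 0.06, adjusted *P* = 0.000301). The first of these calls was lost when any of the *Lrp2* sh1 libraries was left out (adjusted *P* = 0.0607 to 0.0723), and the second held in all 6 such fits. In the uninjected group the females were at 178 and 173 CPM and the male at 133 CPM. In fits of all 18 libraries, the difference of *Acvrl1* with *Lrp2* sh1 was −0.30 and not called, with an adjusted *P* of 0.0941 without and 0.0712 with a term for sex, nor was it called in the 12 female libraries (adjusted *P* = 0.0754). With a term for sex, the nSREBP2 differences of *Eng* and *Acvrl1* were −0.22 (adjusted *P* = 0.238) and −0.18 (adjusted *P* = 0.451), and those of *Lrp2* sh2 were −0.48 (adjusted *P* = 0.00289) and −0.50 (adjusted *P* = 0.00683).

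The markers of endothelium moved with both genes. The 15 markers, which hold neither *Eng* nor *Acvrl1*, summed to 3225 to 4118 CPM in the GFP libraries and 2558 to 2812 CPM in the nSREBP2 libraries. The sums were 3435 to 3607 CPM in ctrl sh, 3097 to 3382 CPM in *Lrp2* sh1 and 2322 to 2552 CPM in *Lrp2* sh2, so that each treated group lay below its control. Of the 15 markers, 9 were called lower with nSREBP2 (median log2FC of the list −0.47), 1 with *Lrp2* sh1 (*Esam*, median −0.13) and 13 with *Lrp2* sh2 (median −0.56), and none was called higher. None of the 15 was at 0 in all 18 libraries. What lowered the markers, such as fewer endothelial cells or less RNA per cell, cannot be told from these bulk samples. The part of any such change in the falls of *Eng* and *Acvrl1* was not tested. By likeness of log2 CPM over the 18 libraries, among 15297 genes, the gene closest to both was *Esam*, an adhesion molecule of endothelium (Pearson *r* = 0.98 for *Eng* and 0.97 for *Acvrl1*), with *Ncoa3* next for *Eng* and *Tmem200b* next for *Acvrl1*. These correlations are descriptions, since the libraries share their groups.

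**Figure D4:**
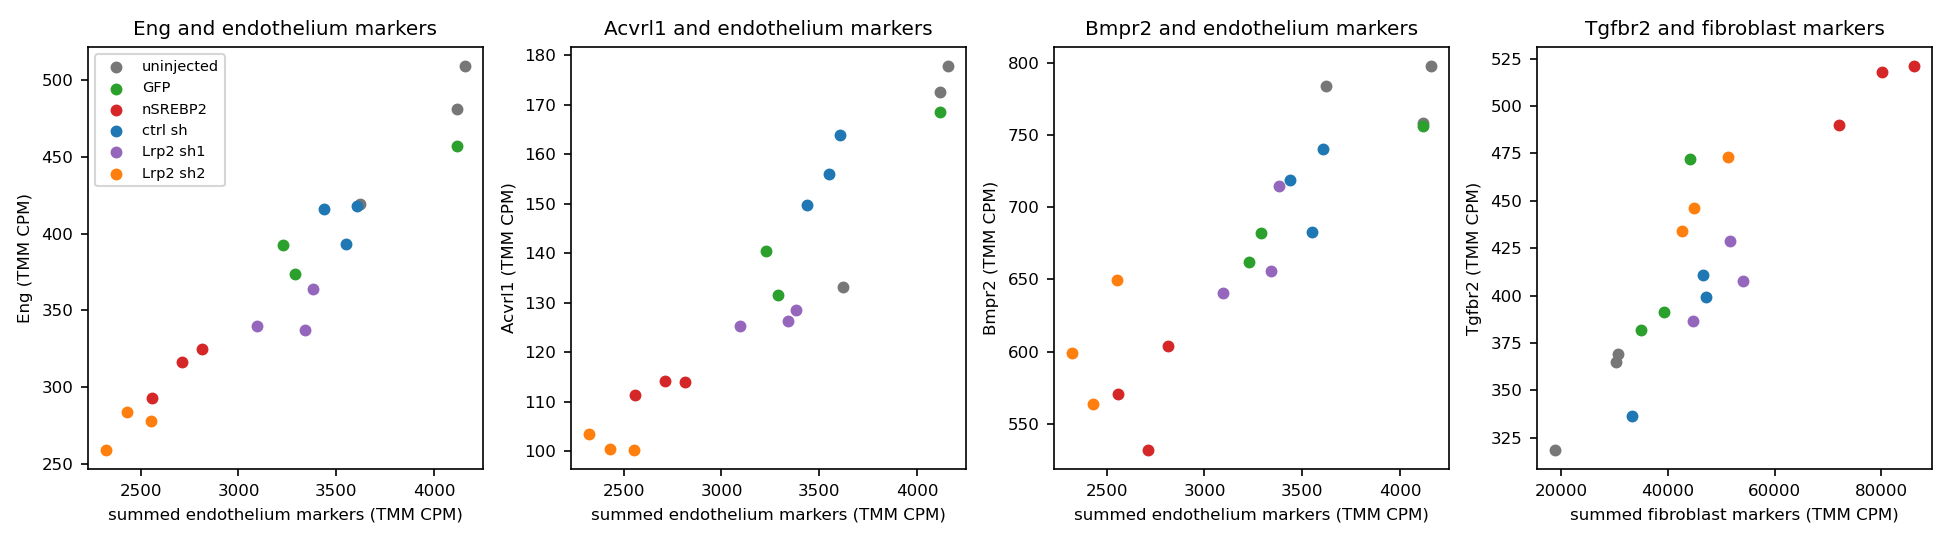
Level of *Eng*, *Acvrl1* and *Bmpr2* against the summed level of 15 endothelial markers, and of *Tgfbr2* against that of 10 fibroblast markers (all TMM-normalized CPM), with 1 point for each of the 18 libraries. The *Lrp2* sh2 and nSREBP2 libraries have the lowest endothelial sums, at 2322 to 2812 CPM, and the nSREBP2 libraries have the highest fibroblast sums, at 72090 to 86155 CPM.

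*Bmpr2*, the main type II receptor of BMPs, lies on chromosome 1, plus strand, at 59763400 to 59879014. It was at 682, 662 and 756 CPM in GFP and at 604, 532 and 571 CPM in nSREBP2. The groups did not overlap, and the fall was 0.29 on the log2 scale (SE 0.08, adjusted *P* = 0.0247). It was lost as a call without nSREBP2 replicate 2 (adjusted *P* = 0.101) or 3 (adjusted *P* = 0.0719), whereas with the term for sex *Bmpr2* was the only receptor called in this comparison (log2FC −0.37, adjusted *P* = 0.0307). The ctrl sh libraries had 683, 740.2 and 719 CPM, the *Lrp2* sh1 libraries 656, 715 and 641 CPM, and the *Lrp2* sh2 libraries 564, 649 and 599 CPM. All *Lrp2* sh2 libraries were below those of ctrl sh, and the difference of −0.23 had an adjusted *P* of 0.0681. DESeq2 called it (log2FC −0.24, adjusted *P* = 0.0202). With the term for sex the difference was −0.30 and called (adjusted *P* = 0.0355). For *Lrp2* sh1 the difference was −0.09 (95% interval −0.24 to 0.06). The uninjected libraries were highest at 797, 758 and 784 CPM. *Cyyr1* and *Flt1*, the latter a VEGF receptor and one of the endothelial markers, were closest to *Bmpr2* over the 18 libraries (Pearson *r* = 0.95 for both). With the summed endothelial markers its Pearson *r* was 0.89, over libraries that share their groups. The part of endothelial RNA in the fall of *Bmpr2* was not tested.

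*Tgfbr2* was the only receptor called higher with nSREBP2. The gene lies on chromosome 9, minus strand, at 116084293 to 116175360. Its level was 382, 391 and 472 CPM in GFP and 521, 489.8 and 518 CPM in nSREBP2, with no overlap between the groups. The rise was 0.30 on the log2 scale (SE 0.09, adjusted *P* = 0.0372). It was called in only 1 of the 6 fits that left out 1 library, those without nSREBP2 replicates 1, 2 or 3 or GFP replicates 1 or 2 giving adjusted *P*-values of 0.0675 to 0.168, and with the term for sex it was 0.39 (adjusted *P* = 0.0704). In *Lrp2* sh2 the level was 446, 473 and 434 CPM, above the 336, 411 and 399 CPM of ctrl sh, but the difference of 0.25 was not called (adjusted *P* = 0.0776). DESeq2 did call it, near the threshold (adjusted *P* = 0.0482). The *Lrp2* sh1 libraries had 386, 408 and 429 CPM (log2FC 0.09, 95% interval −0.10 to 0.28), and the uninjected libraries 369, 365 and 319 CPM. All 10 fibroblast markers were called higher with nSREBP2 (median log2FC 0.88), and they summed to 72090 to 86155 CPM against 35001 to 44240 CPM in GFP. With *Lrp2* sh2, 4 of these 10 were called higher (median log2FC 0.23) and their sum was 42626 to 51268 CPM against 33221 to 47171 CPM in ctrl sh. With *Lrp2* sh1, where *Tgfbr2* differed little, none was called but the median log2FC was alike at 0.24. Its sum was 44694 to 54010 CPM. Macrophage markers moved in the same way with nSREBP2: 9 of 10 were called higher (median log2FC 0.98), and they summed to 667 to 714 CPM against 391 to 464 CPM in GFP. None of the fibroblast or macrophage markers was at 0 in all 18 libraries, and the part of fibroblast or macrophage RNA in the level of *Tgfbr2* was not tested. The genes closest to *Tgfbr2* were *Fam114a1* and *Mrc2* (Pearson *r* = 0.95 for both).

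Sequence upstream of the start was available for 9 of the 10 receptors, all but *Acvrl1*, in 11 windows of 250 bases (RefSeq, GRCm38.p6). Both strands were searched for GTGGGG, an SRE-like sequence of the kind that SREBPs can bind, CACGTG, the E-box, and GGGCGG, the GC box. GTGGGG was in the windows of *Bmpr2*, *Eng* and *Tgfbr2*, and 25.5% of all 32851 windows held it. CACGTG was in that of *Acvr1b* (6.02% of all windows), and GGGCGG in those of 6 receptors (32.7% of all windows). None of these letters was in the 3 windows of *Bmpr1b*, the receptor that fell most with nSREBP2. The windows of *Eng*, which was lower with nSREBP2, and of *Tgfbr2*, which was higher, are shown with GTGGGG (or its reverse complement CCCCAC) in capitals. That of *Bmpr2* also holds it but is not shown, because it lies within the gene as annotated in GENCODE M21. The first is chr2:32646345-32646594, plus strand, and the second is chr9:116175364-116175613, minus strand.
Eng: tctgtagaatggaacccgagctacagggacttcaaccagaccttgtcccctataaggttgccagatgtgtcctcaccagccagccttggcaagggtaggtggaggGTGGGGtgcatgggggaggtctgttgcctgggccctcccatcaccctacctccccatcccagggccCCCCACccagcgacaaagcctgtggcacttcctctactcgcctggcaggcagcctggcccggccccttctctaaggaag
Tgfbr2: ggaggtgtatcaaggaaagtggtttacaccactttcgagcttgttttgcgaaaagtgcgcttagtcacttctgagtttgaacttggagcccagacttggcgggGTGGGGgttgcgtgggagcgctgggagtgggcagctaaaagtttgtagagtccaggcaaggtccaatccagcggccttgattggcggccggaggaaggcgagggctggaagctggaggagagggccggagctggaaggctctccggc
In *Eng* the first base of the motif as read on the plus strand of the gene lay 145 bases upstream of the start for GTGGGG and 79 bases for CCCCAC. In *Tgfbr2* it lay 147 bases upstream. The letters are thus shared by receptors that differed in direction, and a match is not evidence of binding.

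*Bmpr1a*, the more abundant type I receptor of BMPs, lies on chromosome 14, minus strand, at 34410734 to 34503341. It was at 188, 198 and 191 CPM in ctrl sh and at 233, 233 and 219 CPM in *Lrp2* sh1. The groups did not overlap, and the rise of 0.24 on the log2 scale was called (SE 0.06, adjusted *P* = 0.0359). It was called in only 1 of the 6 fits that left out 1 library, the adjusted *P* being 0.0623 to 0.143 without any one of *Lrp2* sh1 replicates 1 to 3 or ctrl sh replicates 2 and 3. In *Lrp2* sh2 the level was 199, 216 and 222 CPM (log2FC 0.15, adjusted *P* = 0.136). GFP and nSREBP2 overlapped, with 202, 198 and 201 CPM against 199, 173 and 203 CPM (log2FC −0.06, 95% interval −0.22 to 0.10). The uninjected libraries had 182, 175 and 191 CPM. *Kif5b*, a kinesin, and *Acp1*, a phosphatase, were closest to *Bmpr1a* (Pearson *r* = 0.94 for both).

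*Acvr1b*, the type I receptor of activin, is on chromosome 15, plus strand, at 101174067 to 101213684. It was the only receptor called higher with *Lrp2* sh2, where its level was 46.2, 45.6 and 46.7 CPM against 35.03, 38.5 and 37.6 CPM in ctrl sh. The rise was 0.33 on the log2 scale (SE 0.07, adjusted *P* = 0.0101) and held in all 6 fits that left out 1 library. Markers of rod photoreceptors, of other retinal cells and of the RPE moved in the same libraries. With *Lrp2* sh2, 10 of 12 rod photoreceptor markers were called higher (median log2FC 2.86). Their sums were 498, 112 and 137 CPM against 47.1 to 71.5 CPM in ctrl sh. Of 9 tested markers of other retinal cells, 3 were called higher and 1 lower. That list summed to 814 to 996 CPM against 1243 to 1556 CPM in ctrl sh. Of the 12 RPE markers, 6 were called lower (median log2FC −1.36), with sums of 2591 to 2919 CPM against 4294 to 6280 CPM. The part of these cell types in the differences of *Acvr1b*, *Eng* and *Acvrl1* was not tested. The uninjected libraries, in which *Acvr1b* was at 45.8, 45.2 and 42.1 CPM, were close to those of *Lrp2* sh2, and the ctrl sh libraries were the lowest of the series. The difference of ctrl sh from the uninjected libraries was −0.27 (adjusted *P* = 0.0920). In edgeR fits of all 18 libraries it was called, with an adjusted *P* of 0.0114 without and 0.0150 with a term for sex. Against the uninjected libraries, *Lrp2* sh2 differed by only 0.06 (adjusted *P* = 0.635), so its rise was one against ctrl sh. In *Lrp2* sh1 the level was 39.6, 39.1 and 39.9 CPM (log2FC 0.09, 95% interval −0.07 to 0.25). GFP, at 39.0, 44.5 and 41.3 CPM, and nSREBP2, at 40.1, 39.8 and 42.2 CPM, overlapped (log2FC −0.02, 95% interval −0.20 to 0.15).

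*Acvr2b*, a type II receptor of activin on chromosome 9, plus strand, at 119402118 to 119434995, had 108 to 211 counts per library. Its level was 15.2, 13.9 and 12.9 CPM in ctrl sh and 11.6, 8.92 and 9.42 CPM in *Lrp2* sh1, without overlap. The difference of −0.49 was not called (SE 0.13, adjusted *P* = 0.0616). In edgeR fits of all 18 libraries its adjusted *P* was 0.0538 without and 0.0481 with a term for sex, on either side of the threshold. Against the uninjected libraries, *Lrp2* sh1 differed by −0.65 (adjusted *P* = 0.00881). *Lrp2* sh2, at 16.8, 13.03 and 12.7 CPM, overlapped ctrl sh (log2FC 0.03, 95% interval −0.28 to 0.34). In the uninjected libraries *Acvr2b* was at 14.7, 16.6 and 15.7 CPM, above the 10.2, 12.998 and 12.4 CPM of GFP, but the difference of −0.41 was not called (adjusted *P* = 0.140). The nSREBP2 libraries were at 10.97, 11.6 and 11.5 CPM, within the range of GFP.

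*Acvr1* and *Acvr2a* were called in none of the 6 comparisons of 2 groups. *Acvr1*, a type I receptor of BMPs and activin on chromosome 2, minus strand, at 58388644 to 58567157, ranged from 59.4 to 79.4 CPM over all libraries, and its log2FC was 0.03 (95% interval −0.21 to 0.26) with nSREBP2, 0.01 (−0.13 to 0.15) with *Lrp2* sh1 and −0.02 (−0.20 to 0.15) with *Lrp2* sh2. *Acvr2a*, a type II receptor on chromosome 2, plus strand, at 48814109 to 48903269, ranged from 47.7 to 63.0 CPM. Its log2FC was −0.11 (95% interval −0.28 to 0.05), 0.13 (−0.02 to 0.28) and −0.06 (−0.25 to 0.13) in the same order. Some exons of *Bmpr1a*, *Acvrl1*, *Acvr2a* and *Eng* overlap a gene on the opposite strand, for 61 to 446 bases, and reads of these stretches may belong to either gene because the use of strand in counting is not given in the sources used here.

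The hairpins were also compared with each other, since both target *Lrp2*. In *Lrp2* sh2 versus *Lrp2* sh1, 4 of the 10 receptors were called, against 22.4% of all genes (10.2% higher and 12.3% lower). *Eng* (log2FC −0.33, SE 0.06, adjusted *P* = 0.00338) and *Acvrl1* (log2FC −0.31, SE 0.05, adjusted *P* = 0.00283) were lower with *Lrp2* sh2, and *Acvr1b* (log2FC 0.23, SE 0.06, adjusted *P* = 0.0187) and *Acvr2b* (log2FC 0.51, SE 0.16, adjusted *P* = 0.0397) were higher. The call of *Acvr1b* was lost without any 1 of *Lrp2* sh1 replicates 1 to 3 or *Lrp2* sh2 replicate 3 (adjusted *P* = 0.0580 to 0.0862), and that of *Acvr2b* without *Lrp2* sh1 replicates 2 or 3 or *Lrp2* sh2 replicates 1 or 2 (adjusted *P* = 0.0570 to 0.139). DESeq2 called *Eng* and *Acvrl1* but neither *Acvr1b* nor *Acvr2b*. The groups also differ in sex, and with a term for sex *Eng* (log2FC −0.24, adjusted *P* = 0.100) and *Acvrl1* (log2FC −0.20, adjusted *P* = 0.280) were not called, whereas *Acvr1b* (adjusted *P* = 0.0388), *Acvr2b* (adjusted *P* = 0.0119) and *Acvr2a* (log2FC −0.29, adjusted *P* = 0.0422) were. The level of *Lrp2* itself did not differ detectably between them (log2FC 0.08, 95% interval −0.22 to 0.37). The endothelial markers did differ, 13 of the 15 being called lower with *Lrp2* sh2. In the 12 female libraries alone, which hold 1 library of *Lrp2* sh2 whose spread is taken from the other groups, *Acvr2b* was the only receptor called (log2FC 0.75, adjusted *P* = 0.0272).

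To compare the effect of nSREBP2 with those of the hairpins, the differences between the effects were tested. *Bmpr1b* fell by 0.83 more with nSREBP2 than with *Lrp2* sh1 (SE 0.23, adjusted *P* = 0.0320), and *Bmpr1a* differed by −0.31 (SE 0.09, adjusted *P* = 0.0400), with a rise called for *Lrp2* sh1 and none for nSREBP2. These were 2 of 10 receptors against 9.71% of all genes. Relative to *Lrp2* sh2, *Acvr1b* differed by −0.34 (SE 0.09, adjusted *P* = 0.0321), 1 of 10 receptors against 5.74% of all genes. The calls were lost in many of the fits that left out 1 library, in which the differences stayed of like size. That of *Bmpr1b* was lost without any 1 of nSREBP2 replicates 1 to 3, *Lrp2* sh1 replicates 1 or 2, ctrl sh replicates 1 or 3 or GFP replicate 1 (differences of −0.87 to −0.66, adjusted *P* = 0.0516 to 0.105). That of *Bmpr1a* was lost without nSREBP2 replicate 2, *Lrp2* sh1 replicates 1 or 2, or any 1 library of ctrl sh or GFP (differences of −0.33 to −0.25, adjusted *P* = 0.0674 to 0.0979). That of *Acvr1b* was lost without nSREBP2 replicates 1 or 2, ctrl sh replicates 1 or 3, GFP replicate 2 or *Lrp2* sh2 replicates 1 or 3 (differences of −0.35 to −0.29, adjusted *P* = 0.0513 to 0.0993). The effects on *Eng* differed by −0.15 (95% interval −0.39 to 0.10) from those of *Lrp2* sh1 and by 0.20 (−0.04 to 0.45) from those of *Lrp2* sh2, and neither was called. With the term for sex, of these differences only that of *Bmpr1a* was called (−0.43, adjusted *P* = 0.0227).

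The control vectors were also compared with uninjected eyes. Since every injected group received a vector, injection, virus and expressed sequence cannot be told apart in these comparisons. No receptor was called by edgeR in GFP versus uninjected (2.48% of all genes called), where 1 receptor, *Acvr2b*, had an unadjusted *P* under 0.05. None was called in ctrl sh versus uninjected (6.49% of all genes), where *Bmpr1b* and *Acvr1b* had an unadjusted *P* under 0.05, and DESeq2 also called none in either. In the edgeR fit of all 18 libraries, *Acvr1b* was called lower in ctrl sh (adjusted *P* = 0.0114), as were or were higher 14.5% of all genes. The groups still did not overlap for some: *Bmpr1a* and *Tgfbr2* were higher and *Bmpr2* and *Acvr2b* lower in all GFP libraries than in all uninjected libraries, and *Bmpr1b*, *Bmpr2*, *Acvr1b* and *Eng* were lower in all ctrl sh libraries. Of all genes, 13.8% were higher and 11.7% lower without overlap in the first comparison, and 17.2% and 14.6% in the second. RPE markers also differed, 7 of 12 being called lower in GFP than in uninjected eyes and none in ctrl sh. In GFP, *Rpe65* (log2FC −8.95), *Rgr* (−6.30) and *Lrat* (−4.63) were far lower, whereas *Tyrp1* (0.003) and *Mitf* (0.008) hardly differed. In ctrl sh, 10 of 12 were below 0 (median log2FC −0.97), with *Rpe65* at −4.59 (adjusted *P* = 0.064).

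Other genes of the pathway were counted from lists. Their counts stand beside 12.6% of all genes called higher and 8.47% lower with nSREBP2, 3.06% and 2.28% with *Lrp2* sh1, and 8.59% and 9.48% with *Lrp2* sh2. Those of the ligands of TGF-beta and activin type were near these shares. Of the other receptors and coreceptors, *Tgfbr1*, the type I receptor of TGF-beta, was called higher with nSREBP2 (log2FC 0.47, adjusted *P* = 0.00116) and with *Lrp2* sh2 (log2FC 0.46, adjusted *P* = 0.00228). *Tgfbr3*, the coreceptor betaglycan, was called lower with both (log2FC −0.51, adjusted *P* = 0.000391, and −0.54, adjusted *P* = 0.000366). *Rgma* and *Rgmb* were higher and *Bambi*, a pseudoreceptor, lower with nSREBP2, and *Neo1* was lower with *Lrp2* sh2. Of 7 tested genes of this list, 3 were thus higher and 2 lower with nSREBP2, and of 6 tested with the hairpins, *Lrp2* sh2 gave 1 higher and 2 lower and *Lrp2* sh1 gave none. Of the ligands of the BMP branch, 2 of 9 tested were higher and 3 lower with nSREBP2, 0 and 2 of 7 with the first hairpin, and 0 and 4 of 8 with the second. *Bmp2* and *Gdf10* were lower in all 3 comparisons, *Bmp2* by 1.10, 0.37 and 0.90 on the log2 scale. *Bmp6* was lower with nSREBP2 and *Lrp2* sh2, as was *Gdf11* among the ligands of TGF-beta and activin type, of which 2 of 11 tested were higher and 2 lower with nSREBP2, 0 and 1 of 10 with the first hairpin, and 1 and 1 of 10 with the second.

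Secreted antagonists, which keep BMPs from the receptors, were called higher for 2 and lower for 5 of 13 with nSREBP2, 1 and 3 with the first hairpin, and 2 and 6 with the second. *Sost*, *Sostdc1* and *Chrdl1* were lower in all 3 comparisons, *Sostdc1* with a log2FC of −0.97, −1.44 and −1.88. *Nog* was lower and *Fstl1* higher with nSREBP2 and *Lrp2* sh2. Among the 8 Smads, *Smad6* and *Smad9* were lower in all 3 comparisons, and with nSREBP2 *Smad7* was lower too and *Smad1* and *Smad5* higher. The BMP targets, which include *Smad6*, *Smad7* and *Smad9*, were lower for 7 of 7, 2 of 7 and 5 of 7 in the order above, with *Id1*, *Id2* and *Id4* among those lower with both nSREBP2 and *Lrp2* sh2. Targets of TGF-beta, by contrast, were higher for 4 and lower for 1 of 8 with nSREBP2, called in neither direction with the first hairpin, and higher for 5 with the second. *Pmepa1* (log2FC 0.80 and 0.64) and *Tgfbi* (log2FC 1.75 and 0.96) were higher with both nSREBP2 and *Lrp2* sh2, and *Thbs1* was lower with the former (−0.71) and higher with the latter (0.60). The list holds *Col1a1*, which is also a fibroblast marker.

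The remaining genes closest in pattern over the 18 libraries were *Fam13c* and *Slc22a5* for *Bmpr1b* (Pearson *r* = 0.92 for both), *Xpo4* (0.86) and *Apc* (0.82) for *Acvr2a*, *Ccdc9* (0.83) and *Dok6* (0.80) for *Acvr2b*, *Nudt5* (0.82) and *Shb* (0.81) for *Acvr1b*, and *Gnaq* and *Tbc1d24* (0.81 for both) for *Acvr1*. Among the receptors themselves, *Eng* and *Acvrl1* were most alike (Pearson *r* = 0.96 over the 18 libraries), and *Bmpr1b* and *Tgfbr2* were most opposed (Pearson *r* = −0.83).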

How the data were processed

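RNA-seq of 18 RPE libraries was processed. The authors mapped reads to GRCm38 with STAR, as the submitters' processing notes name it, and deposited raw gene counts. The annotation is not given in the sources used here. Positions, exon lengths and overlaps came from GENCODE M21, which holds 52489 of the 52636 gene identifiers. Groups and replicate numbers came from the sample labels, and replicates differed by more than sampling noise.

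For every comparison, the counts of both groups were passed to edgeR 4.0.16 under R 4.3.3 (filterByExpr, TMM, glmQLFit, glmQLFTest), with Benjamini-Hochberg adjustment over all genes tested. The 10 receptors passed the filter in all 6 comparisons of 2 groups. Tests over 6 groups and of differences between effects used all 18 libraries. Each SE is the log2FC divided by the root of F. The procedure was tested on simulated data. Depth was 8921885 to 13696934 counts per library, at which 0 counts leave room for 3 (0.219 to 0.336 CPM, counting error only). The genes closest in pattern were the 2 of highest Pearson *r* of log2 CPM (prior count 2), among genes whose log2 CPM averaged 1 or more. Pathway genes were named when called in at least 2 of the 3 comparisons of the study, and *Rgma*, *Rgmb*, *Bambi*, *Neo1*, *Smad1*, *Smad5* and *Smad7* after their values were seen. Some genes that met this rule are not reported here. Sex was inferred with a threshold of 10 CPM on *Xist* and on the sum of 4 Y-linked genes, and served as a covariate and to select the female libraries. The receptors, the pathway lists and the marker lists were chosen with earlier results of these data known. Alternatives were DESeq2 1.42.0, its size factors in edgeR, no filter, a minimum of 10 counts in every library, a replicate block, the uninjected libraries as the control, all libraries in one fit without and with sex, the threshold of the study (an absolute log2FC above 1 besides the adjusted *P*), and leaving out each library. The fit of the 12 female libraries was chosen after seeing the data.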

Additional observations from a re-analysis of the deposited data

Results flagged for a closer look

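Receptors are listed here because a difference between 2 effects was itself called by edgeR. Between the hairpins, which share the ctrl sh libraries, *Eng* (log2FC −0.33) and *Acvrl1* (log2FC −0.31) were lower and *Acvr2b* (log2FC 0.51) and *Acvr1b* (log2FC 0.23) were higher with *Lrp2* sh2 than with *Lrp2* sh1. *Eng* and *Acvrl1* kept this call in all 6 fits that left out 1 library, and *Acvr1b* and *Acvr2b* in 2 of 6 each. With sex as a term, by contrast, *Eng* (adjusted *P* = 0.100) and *Acvrl1* (adjusted *P* = 0.280) lost the call, and *Acvr1b* and *Acvr2b* kept it. DESeq2, without that term, gave the reverse. It called *Eng* (adjusted *P* = 9.2e-06) and *Acvrl1* (adjusted *P* = 0.000311) but not *Acvr1b* (adjusted *P* = 0.134) or *Acvr2b* (adjusted *P* = 0.0556). The effect of nSREBP2 minus that of *Lrp2* sh1 was −0.83 for *Bmpr1b* and −0.31 for *Bmpr1a*, and the effect of nSREBP2 minus that of *Lrp2* sh2 was −0.34 for *Acvr1b*. No group had enough libraries for a test of single outlying samples.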

How the results depend on the processing

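The count of receptors called with nSREBP2 (5) was 5 or 6 under the alternatives run on all libraries of a comparison, except that it was 1 with sex as a term and 0 at an absolute log2FC above 1. For *Lrp2* sh1 (2) it was 4 without a filter, 1 with the replicate block, 5 with the uninjected control, 1 with all libraries in one fit, 1 in the 12 female libraries and 0 at the fold threshold. For *Lrp2* sh2 (3) it was 5 with DESeq2 (*Bmpr2* and *Tgfbr2* besides), 5 with the uninjected control and 0 at the fold threshold. For *Lrp2* sh2 versus *Lrp2* sh1 (4) it was 2 with DESeq2, 3 with sex as a term (*Acvr1b*, *Acvr2b* and *Acvr2a*, without *Eng* and *Acvrl1*), 1 in the female libraries and 0 at the fold threshold. For ctrl sh versus uninjected (0) it was 1 with all libraries in one fit, 1 with sex as a term and 1 in the female libraries. That receptor was *Acvr1b* each time. For nSREBP2 minus *Lrp2* sh1 (2) it was 1 without a filter, 1 with the block, 1 with sex and 0 at the fold threshold, and for nSREBP2 minus *Lrp2* sh2 (1) it was 0 under each of these 4. Of all genes, 9.71% were called for the first, 5.24% without a filter, 8.92% with the block and 6.93% with sex. For the second these shares were 5.74%, 3.14%, 4.91% and 5.82%. The cause was not tested.

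Leaving out 1 library gave 2 to 5 receptors for nSREBP2 (2 without nSREBP2 replicate 2), 0 to 3 for *Lrp2* sh1 (0 without any 1 of the *Lrp2* sh1 replicates), 3 to 4 for *Lrp2* sh2, 2 to 4 between the hairpins, 8 to 9 among the 6 groups, 0 to 2 and 0 to 1 for the differences between effects, and 0 for both control vectors. Of all genes, 16.4% were called without nSREBP2 replicate 2 and 1.98% to 2.16% without any 1 of the *Lrp2* sh1 replicates.

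Some uncalled values changed sign. With the uninjected control, *Bmpr1a* with nSREBP2 was 0.062, *Acvr1b* with *Lrp2* sh1 was −0.17, and *Acvr1* and *Acvr2b* with *Lrp2* sh2 were 0.010 and −0.14. With sex, *Acvr1b* and *Acvr2b* with nSREBP2 were 0.029 and 0.14, *Acvrl1* and *Eng* in nSREBP2 minus *Lrp2* sh1 were 0.12 and 0.012, and *Acvr2b* in nSREBP2 minus *Lrp2* sh2 was 0.0032. In the female libraries, *Acvr1* was −0.035 in GFP and −0.015 in ctrl sh versus uninjected, and *Bmpr1b* was 0.0037 between the hairpins. Without 1 library, log2FC with nSREBP2 ranged from −0.10 to 0.0094 for *Bmpr1a*, −0.043 to 0.16 for *Acvr1*, −0.077 to 0.023 for *Acvr1b* and −0.16 to 0.012 for *Acvr2b*. With *Lrp2* sh1 it was −0.16 to 0.0048 for *Bmpr1b* and −0.035 to 0.057 for *Acvr1*, and with *Lrp2* sh2 −0.077 to 0.018 for *Acvr1* and −0.12 to 0.10 for *Acvr2b*. For *Acvr1* it was −0.11 to 0.088 in GFP and −0.031 to 0.10 in ctrl sh versus uninjected, where *Acvrl1* was −0.17 to 0.032 and *Acvr2a* −0.0027 to 0.056, and −0.083 to 0.0069 between the hairpins. In nSREBP2 minus *Lrp2* sh1 it was −0.052 to 0.16 for *Acvr1* and −0.14 to 0.052 for *Acvrl1*, and in nSREBP2 minus *Lrp2* sh2 −0.10 to 0.013 for *Bmpr2*, −0.0042 to 0.20 for *Acvr1*, −0.093 to 0.033 for *Acvr2a* and −0.17 to 0.069 for *Acvr2b*.

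Replicate numbers did not pair the samples: deviations of same-numbered libraries correlated from −0.27 to 0.34 over 45 pairs. With the replicate number as a block, *Bmpr1a* with *Lrp2* sh1 was not called (adjusted *P* = 0.0963), and 5, 1, 3 and 4 receptors were called with nSREBP2, with *Lrp2* sh1, with *Lrp2* sh2 and between the hairpins, and 8 among the 6 groups. With 3 mice per group, small differences of *Bmpr1b* and *Acvr2b*, at 71 to 211 counts, are not detectable.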
